A study of Mus musculus with 6 samples.

Results

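The MAP kinase phosphatases are enzymes that switch mitogen-activated protein (MAP) kinases off. The 9 genes followed were Dusp1, Dusp2, Dusp3, Dusp4, Dusp5, Dusp6, Dusp7, Dusp10 and Dusp16. They were taken by gene symbol from the deposited count table, and all 9 were found among its 21878 genes. All 9 also passed the filter on low counts, which 12136 genes passed. RNA came from tumour-associated macrophages of the mouse, sorted by flow cytometry 14 days after injection of MC38, a mouse colon carcinoma line. The KO group held 3 libraries from Trmt61af/fLysmCre mice, in which Cre recombinase is expressed from the lysozyme M locus of myeloid cells and deletes floxed Trmt61a. The WT group held 3 libraries from Trmt61af/f mice, which carry the same floxed alleles without the Cre. Both groups bore the tumour. Nothing in the labels ties a library to a mouse of its own. The p-values therefore cover variation among the libraries, part of which may be technical.

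MAP kinases (ERK, JNK and p38) are activated by phosphorylation of a threonine and a tyrosine in one loop, and the dual-specificity phosphatases remove both phosphates. Many of these phosphatases are themselves induced by the kinases that they inactivate, so they form negative feedback loops. In macrophages the best known is Dusp1, which limits p38 and JNK signalling and the cytokine output after an inflammatory stimulus. The family is usually divided into inducible nuclear enzymes (Dusp1, Dusp2, Dusp4 and Dusp5), cytoplasmic enzymes that act on ERK (Dusp6, Dusp7 and Dusp9) and enzymes that prefer JNK and p38 (Dusp8, Dusp10 and Dusp16). Dusp3 is a small atypical enzyme without the kinase-binding domain of the others. RNA levels do not report protein or phosphatase activity.

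Library totals ran from 18839026 to 20313597 counts in KO and from 19622763 to 20247004 counts in WT. Trmt61a, the deleted gene, was at 1.73 to 2.46 CPM in KO libraries, against 6.95 to 8.01 CPM in WT libraries, so all 6 libraries followed their labels. CPM are counts relative to the TMM-scaled library total, scaled to 1000000. All 11 macrophage markers looked for were detected, and their sums were 14500 to 16390 CPM in KO and 15460 to 16900 CPM in WT. Of these 11 markers, 7 had a negative log2 fold change. The complement genes C1qa, C1qb and C1qc were below every WT value in all KO libraries, as were 6.3% of all tested genes. At an unadjusted p under 0.05 in edgeR's test 2 of the 11 were lower, where 3.06% of all tested genes were, and none passed the adjusted threshold. Neutrophil markers, of which 6 of 7 tested had a positive log2 fold change, summed to 132 to 182 CPM in KO and 85.7 to 120 CPM in WT. These ranges did not overlap (two-sided exact permutation p = 0.1, the smallest that 3 against 3 allows), and that rests on Mmp9, a protease gene on the list, at 125 CPM in KO replicate 1. Without Mmp9, an alternative added after seeing the data, the sums overlapped, at 57.1 to 101 CPM in KO and 54.9 to 72.1 CPM in WT (exact permutation p = 0.6). At an unadjusted p under 0.05 in edgeR's test 4 of the 7 were higher, where 3.86% of all tested genes were, and none passed the adjusted threshold. In 2 of the 7, as in 6.11% of all tested genes, all KO libraries lay above all WT libraries. The 2 were Mmp8 (means 16.3 CPM in KO and 11.1 in WT) and the scarce Ltf (0.933 and 0.253 CPM). Ly6g, the defining marker of neutrophils, was at 0 in all libraries but KO replicate 3, where it was at 0.148 CPM. T and NK cell markers summed to 182 to 261 CPM in KO and 146 to 186 CPM in WT (exact permutation p = 0.2), with 13 of 14 tested positive. Most of each sum was Il7r, at 149.5, 178.3 and 155.1 CPM in KO and 112.6, 146.5 and 136.8 CPM in WT. The mean log2 level of the tested T and NK markers, centred on the 6 libraries, was -0.340, 0.929 and -0.062 in KO replicates 1 to 3. It was -0.465, -0.253 and 0.191 in WT, so KO replicate 2 stood highest. Fibroblast markers summed to 204 to 297 CPM in KO and 205 to 323 CPM in WT. Dendritic cell markers summed to 75.7 to 84.2 CPM in KO and 66.1 to 90.9 CPM in WT. Endothelial markers summed to 65.1 to 88.7 CPM in KO and 61.3 to 72.15 CPM in WT. Tumour epithelium markers, almost all Cdh1, summed to 112 to 134 CPM in KO and 77.0 to 141 CPM in WT. Each of these pairs of ranges overlapped. Neutrophils and lymphocytes also express several of the phosphatases, and the part of all these cells in the values below was not tested. In sorted pools, fewer cells that express a gene and less RNA per cell cannot be told apart.

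Across the genes, 8 of the 9 phosphatases had a positive log2 fold change (KO over WT) and Dusp2 had a negative one, but none passed the test. The largest positive difference was that of Dusp6, the ERK phosphatase of the cytoplasm, at 1.41-fold. With edgeR's quasi-likelihood test, 0 of 9 members passed at an adjusted p under 0.05, against 0.0165% of all tested genes. That share is 2 genes, and 1 of them is Trmt61a, the deleted gene (log2 fold change -1.81, edgeR adjusted p = 0.0426). Even Trmt61a was called in only 8 of 17 alternatives, so a member that did not pass may still differ by a smaller amount. At an unadjusted p under 0.05, 3 members were on the higher side (Dusp6, Dusp7 and Dusp3), where 3.86% of all tested genes were. No member was on the lower side, where 3.06% of all tested genes were. The count of 3 was 1 without KO replicate 2 or WT replicate 3 and 5 without WT replicate 2, so it depends on single libraries. A positive log2 fold change was found for 49.8% of all tested genes. The members' median was 0.25, and that of all tested genes was -0.00088. Without KO replicate 2 the members' median was 0.15, and without WT replicate 1 it was 0.16. DESeq2 also called 0 of 9 members, where it called 0.07% of all genes as higher and 0.184% as lower, and limma-voom called 0 with or without quality weights. The 9 genes were chosen with earlier results of these data known, so their share is a description.

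**Figure D1:**
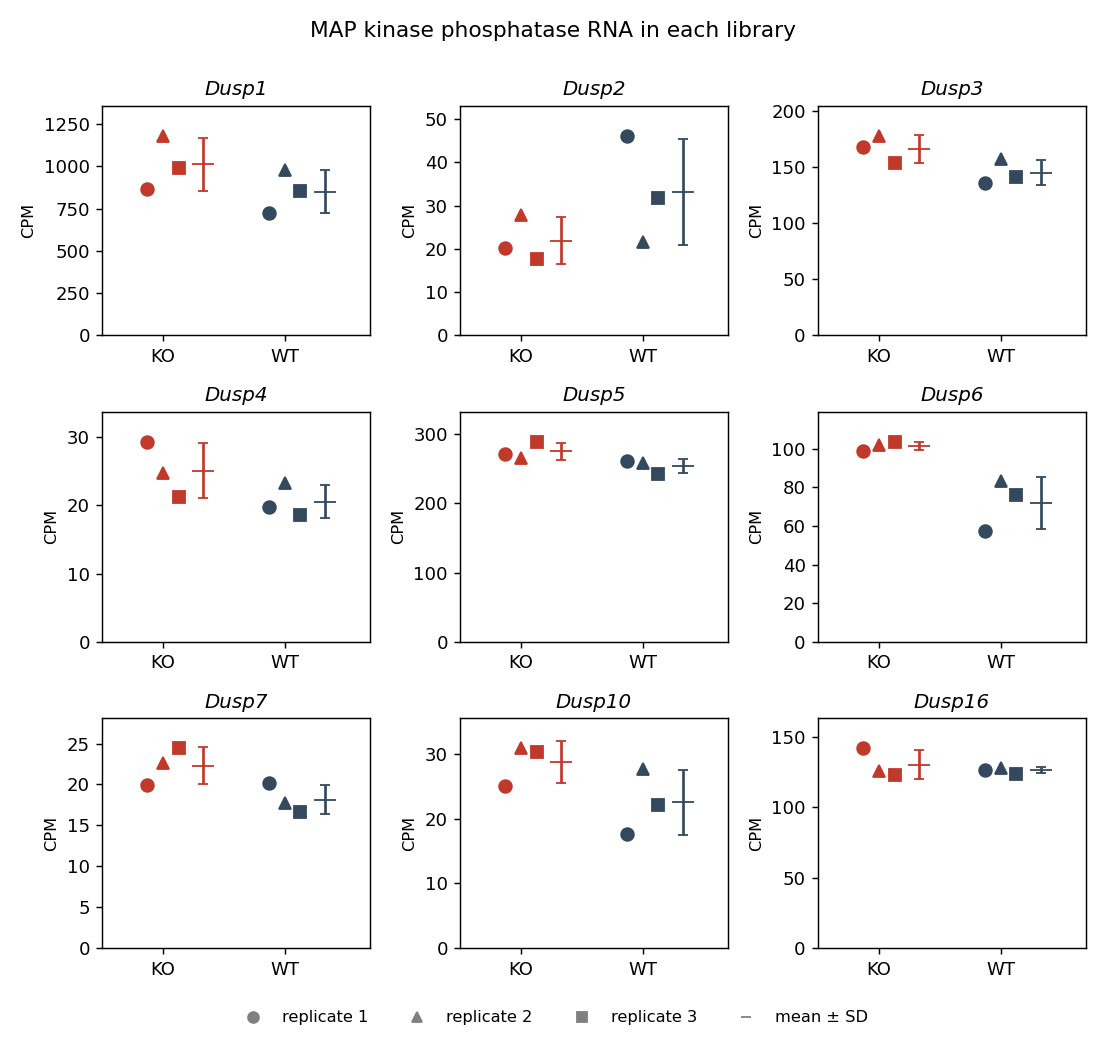
CPM of the 9 phosphatase genes in each library, KO left of WT; symbols are replicates and bars are the mean ± SD of 3 libraries. In the Dusp6 panel the KO libraries sit at 99.0 to 104 CPM, above the WT libraries at 57.2 to 83.4 CPM. In the Dusp2 panel WT replicate 1 stands highest, at 46.2 CPM.

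Per length, Dusp1 RNA was by far the most abundant of the family in both groups. Its level was 306 ± 47.9 CPM per kb of merged exons in KO and 257 ± 38.7 in WT (SD, n = 3 each). Dusp5 came next at 111 ± 4.82 CPM per kb in KO and 103 ± 4.20 in WT. Both stood clear of the rest and of each other in every library, since the lowest Dusp1 level was 218 and the Dusp5 levels ran from 97.8 to 117 CPM per kb. Dusp3 followed at 35.5 ± 2.64 CPM per kb in KO and 30.9 ± 2.39 in WT, and Dusp6 at 32.4 ± 0.721 in KO and 23.0 ± 4.30 in WT. Dusp3 ran from 29.0 to 37.95 CPM per kb and Dusp6 from 18.3 to 33.1, so these neighbours overlapped. Dusp16, at 16.7 ± 1.31 CPM per kb in KO and 16.2 ± 0.276 in WT, shared the middle of the order with Dusp2. The Dusp2 level was 10.9 ± 2.68 CPM per kb in KO and 16.6 ± 6.15 in WT. In WT this spread covered Dusp16, while in KO every Dusp2 value lay below every Dusp16 value. Dusp4, Dusp10 and Dusp7 had the lowest means, with values between 4.95 and 10.7 CPM per kb, and overlapped one another. The lowest Dusp2 value, 8.78 CPM per kb in a KO library, lay within the ranges of Dusp4 and Dusp10, so Dusp2 was not clear of them in KO. By merged exons Dusp2 and Dusp16 exchange places between the groups, as do Dusp4 and Dusp10. By the longest transcript Dusp16 was above Dusp2, and Dusp10 above Dusp4, in both groups. Among all tested genes by CPM, Dusp1 ranked 125 and Dusp7, the lowest member, ranked 6846.

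**Figure D2:**
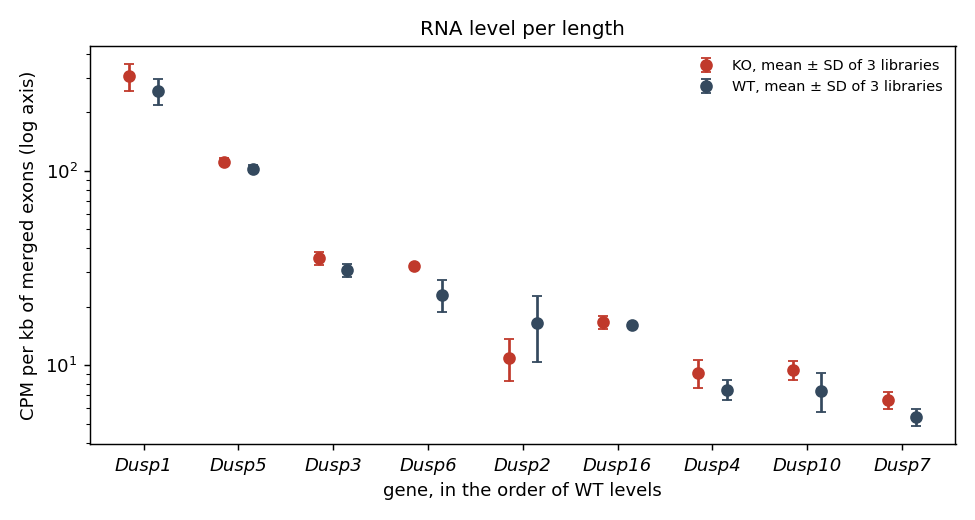
RNA level of the 9 genes in CPM per kb of merged exons on a log axis, in the order of the WT levels, KO left of WT; points are means and bars SD of 3 libraries. Dusp1 and Dusp5 stand above the others in both groups, at 306 and 111 CPM per kb in KO and 257 and 103 CPM per kb in WT.

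The 250 bases upstream of the annotated start are shown for 4 members, from the RefSeq promoter table on GRCm38.p6. Dusp1 and Dusp5 are shown as the most abundant members, and Dusp6 and Dusp2 as the members with the most positive and the most negative log2 fold change. Capitals mark matches on either strand to the CRE (TGACGTCA), its core (TGACG, contained in the CRE), an AP-1 motif (TGANTCA) and an E-box (CACGTG). They also mark an ETS motif (CCGGAAG), the CArG box and a loose NF-kappaB pattern (GGGA and CC with any 4 bases between them). The windows are chr17:26508473-26508722 on the minus strand for Dusp1, chr19:53528895-53529144 on the plus strand for Dusp5, chr10:99262981-99263230 on the plus strand for Dusp6 and chr2:127335909-127336158 on the plus strand for Dusp2.
Dusp1: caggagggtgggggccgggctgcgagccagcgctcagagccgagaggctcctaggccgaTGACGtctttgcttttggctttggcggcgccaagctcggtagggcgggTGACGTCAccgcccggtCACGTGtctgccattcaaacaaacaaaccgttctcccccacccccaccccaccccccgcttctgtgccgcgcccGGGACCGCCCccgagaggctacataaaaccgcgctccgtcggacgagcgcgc
Dusp5: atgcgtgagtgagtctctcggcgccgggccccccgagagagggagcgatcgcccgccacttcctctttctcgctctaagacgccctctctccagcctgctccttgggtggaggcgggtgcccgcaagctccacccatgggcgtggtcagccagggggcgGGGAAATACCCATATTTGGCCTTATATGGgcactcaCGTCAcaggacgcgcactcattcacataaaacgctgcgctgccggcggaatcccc
Dusp6: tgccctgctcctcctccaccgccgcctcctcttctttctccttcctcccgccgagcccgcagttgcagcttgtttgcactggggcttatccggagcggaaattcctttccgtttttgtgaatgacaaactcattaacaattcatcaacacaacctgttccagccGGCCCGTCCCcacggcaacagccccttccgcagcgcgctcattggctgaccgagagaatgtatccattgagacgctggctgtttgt
Dusp2: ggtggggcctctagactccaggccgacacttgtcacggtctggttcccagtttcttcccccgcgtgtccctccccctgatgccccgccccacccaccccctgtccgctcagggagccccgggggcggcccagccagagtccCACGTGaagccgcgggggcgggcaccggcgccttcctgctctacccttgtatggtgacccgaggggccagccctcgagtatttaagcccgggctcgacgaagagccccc
The Dusp1 window held a full CRE, the binding motif of the cAMP-responsive factor CREB, from 143 to 136 bases before the start, and an E-box from 126 to 121 bases before it. The full CRE was in 1.55% of the 32851 windows of the table and the E-box in 6.02%. The Dusp5 window held a pair of adjacent CArG boxes, the motif of serum response factor, from 82 to 63 bases before the start, and 1.47% of all windows held at least 1. The match of Dusp5 to the loose NF-kappaB pattern shares its last base with the first CArG box. The Dusp6 window held 1 match to the loose NF-kappaB pattern and the Dusp2 window 1 E-box.

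The table held a window for 8 of the 9 members. The loose NF-kappaB pattern was in 5 of the 8 (Dusp1, Dusp3, Dusp5, Dusp6 and Dusp7), where 17.6% of all windows held it. None of the 5 had pyrimidines at both bases before the final CC, as the usual NF-kappaB consensus has. The table's start sites differ from the ends of the gene spans for 3 members: the Dusp3 and Dusp16 windows lie inside the RefSeq spans given for these genes, and the Dusp7 window runs past the start of its span. The CRE core was in 3 (Dusp1, Dusp5 and Dusp16), where 17.8% of all windows held it, and the E-box was in Dusp1 and Dusp2. None of the 8 held the AP-1 or the ETS letters, which 6.75% and 6.91% of all windows held. The windows of the 8 members had 56.4% to 77.2% G and C, against a median of 52.4% over all windows, and letters rich in G and C are met more often in such sequence. A match is a description of the letters, and factor binding was not measured.

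Dusp1 (NCBI Gene 19252, chromosome 17, 26505591 to 26508472, minus strand) encodes the nuclear phosphatase MKP-1 and is an immediate early gene. Its level was 868, 1182 and 988 CPM in KO replicates 1 to 3, against 722, 978 and 854 CPM in WT replicates 1 to 3. The groups overlapped, with WT replicate 2 above KO replicate 1. The means were 1013 ± 158 CPM in KO and 851 ± 128 CPM in WT (SD, n = 3 each). The log2 fold change was 0.25 (SE 0.137, 95% interval -0.059 to 0.56), and edgeR's adjusted p was 0.738. It was 0.12 without KO replicate 2, the highest library, and 0.15 without WT replicate 1, the lowest. A longer GENCODE M21 model of Dusp1 overlaps Ergic1 on the opposite strand, and whether reads were counted by strand is not known from the sources at hand. The RefSeq span of Dusp1 given above does not overlap Ergic1, whose log2 fold change was 0.043 (SE 0.0801).

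Dusp2 (NCBI Gene 13537, chromosome 2, 127336159 to 127338377, plus strand) encodes PAC-1, a nuclear phosphatase found mainly in blood cells. It was at 20.3, 27.9 and 17.6 CPM in KO, against 46.2, 21.7 and 31.8 CPM in WT. Its 2 highest libraries were WT replicates 1 and 3, but WT replicate 2 lay among the KO libraries. The means were 21.9 ± 5.36 CPM in KO and 33.2 ± 12.3 CPM in WT (SD, n = 3 each), with a log2 fold change of -0.60 (SE 0.276, 95% interval -1.24 to 0.040, edgeR adjusted p = 0.722). Without WT replicate 1 the log2 fold change was -0.29. Dusp2 varied most within the groups, with a coefficient of variation of 24.5% in KO and 37.1% in WT. Tested genes with a mean of at least 10 CPM had medians of 7.7% in KO and 6.4% in WT.

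Dusp4 (NCBI Gene 319520, chromosome 8, 34807610 to 34819894, plus strand) encodes MKP-2, a nuclear phosphatase close in structure to MKP-1. It was at 29.3, 24.7 and 21.2 CPM in KO, against 19.8, 23.2 and 18.6 CPM in WT. Only KO replicate 3 and WT replicate 2 crossed. The log2 fold change was 0.29 (SE 0.135, 95% interval -0.011 to 0.59, edgeR adjusted p = 0.717), and 0.16 without KO replicate 1.

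Dusp5 (NCBI Gene 240672, chromosome 19, 53529145 to 53541809, plus strand) encodes a nuclear phosphatase selective for ERK. It was at 271, 266 and 289 CPM in KO, against 261, 259 and 242 CPM in WT. All KO libraries lay above all WT libraries, but the nearest were only 266 CPM in KO and 261 CPM in WT. The difference was small, 1.08-fold, with a log2 fold change of 0.12 (SE 0.0700, 95% interval -0.040 to 0.27, edgeR adjusted p = 0.755). An antisense gene model overlaps Dusp5 in GENCODE M21, and its reads may be included if strand was not used.

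Dusp6 (NCBI Gene 67603, chromosome 10, 99263231 to 99267489, plus strand) encodes MKP-3, the cytoplasmic phosphatase of ERK whose transcription is itself driven by ERK. It was at 99.0, 102 and 104 CPM in KO, against 57.2, 83.4 and 75.8 CPM in WT. All KO libraries lay above all WT libraries. The KO libraries were close together, with a coefficient of variation of 2.22%, while the WT libraries spread over 18.7%. The means were 101 ± 2.26 CPM in KO and 72.1 ± 13.5 CPM in WT (SD, n = 3 each). The log2 fold change was 0.49 (SE 0.122, 95% interval 0.22 to 0.77), the unadjusted edgeR p was 0.00278 and the adjusted p was 0.694, so Dusp6 did not pass over all genes. By p it ranked 42 of 12136 genes. It stayed between 0.35 without WT replicate 1 and 0.61 without WT replicate 2 over all 17 alternatives, with an unadjusted p under 0.05 in each. Its adjusted p over them ran from 0.0808 with DESeq2 to 0.999.

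Of the 9 members, 2 (Dusp5 and Dusp6) had all KO values above all WT values, as had 6.11% of all tested genes. None had all KO values below all WT values, as had 6.3% of all tested genes. With library totals alone in place of TMM factors, Dusp7 joined the first pair.

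Dusp7 (NCBI Gene 235584, chromosome 9, 106368560 to 106375724, plus strand) encodes a close relative of MKP-3 that also acts on ERK in the cytoplasm. It was at 19.9, 22.6 and 24.4 CPM in KO, against 20.2, 17.7 and 16.6 CPM in WT. Only KO replicate 1 and WT replicate 1 crossed, and by little. The log2 fold change was 0.30 (SE 0.116, 95% interval 0.039 to 0.56), with an unadjusted edgeR p of 0.0283 and an adjusted p of 0.703. Dusp9, the remaining ERK phosphatase of the cytoplasm and not one of the 9, was at 12.9, 7.72 and 11.7 CPM in KO, against 13.1, 10.4 and 11.6 CPM in WT. Its log2 fold change of -0.12 (SE 0.189, adjusted p = 0.901 with edgeR) turned to 0.073 without KO replicate 2.

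Dusp10 (NCBI Gene 63953, chromosome 1, 184034381 to 184075636, plus strand) encodes MKP-5, which acts on JNK and p38. It was at 25.0, 30.9 and 30.4 CPM in KO, against 17.7, 27.8 and 22.2 CPM in WT. WT replicate 2 lay above KO replicate 1, and the other libraries followed the groups. The log2 fold change was 0.35 (SE 0.158, 95% interval -0.0062 to 0.71, edgeR adjusted p = 0.713), 0.20 without WT replicate 1 and 0.53 without WT replicate 2. Dusp16 (NCBI Gene 70686, chromosome 6, 134715468 to 134807063, minus strand) encodes MKP-7, a further JNK and p38 phosphatase. It was at 142, 126 and 123 CPM in KO, against 127, 128 and 124 CPM in WT, so only KO replicate 1 lay outside the narrow range of the other libraries. Its log2 fold change of 0.045 (SE 0.0744, edgeR adjusted p = 0.905) had a 95% interval of -0.12 to 0.21, which leaves out a difference of the size estimated for Dusp6, and it was -0.021 without KO replicate 1. Dusp8, the third of this class and not one of the 9, was at 12.1 ± 0.852 CPM in KO and 12.1 ± 1.57 CPM in WT (SD, n = 3 each), with a log2 fold change of -0.0078 (SE 0.131).

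Dusp3 (NCBI Gene 72349, chromosome 11, 101971141 to 101987013, minus strand) encodes VHR, a small phosphatase that can dephosphorylate ERK and JNK. It was at 167, 178 and 153 CPM in KO, against 136, 157 and 141 CPM in WT. The groups crossed only between KO replicate 3 and WT replicate 2. The log2 fold change was 0.20 (SE 0.0839, 95% interval 0.013 to 0.39), with an unadjusted edgeR p of 0.0382 and an adjusted p of 0.713. Genes on the opposite strand overlap Dusp3 in GENCODE M21, so its reads are uncertain if strand was not used.

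**Figure D3:**
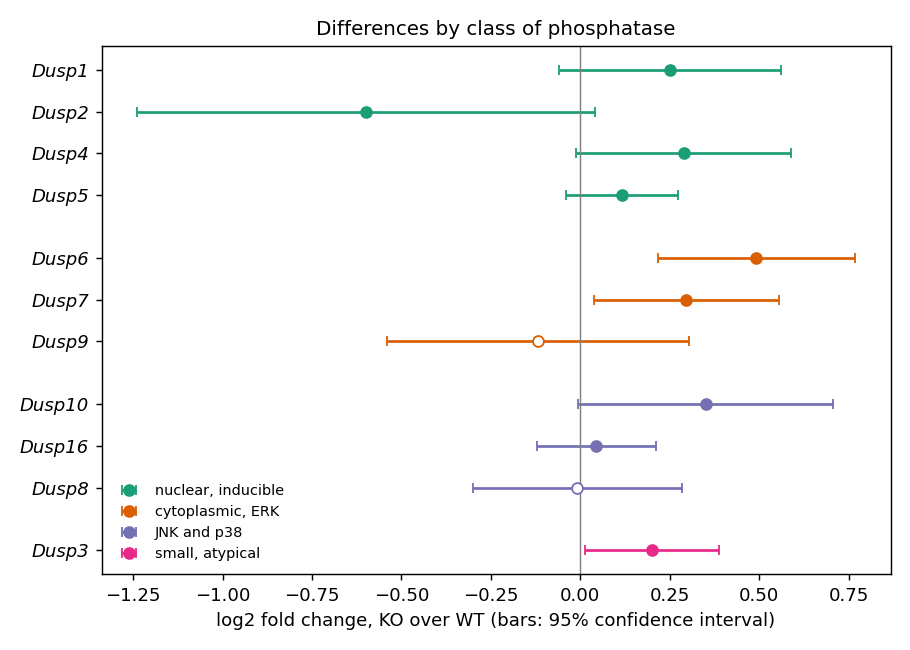
Log2 fold change (KO over WT) of the phosphatases with 95% confidence intervals from edgeR, by class; filled points are the 9 members and open points are Dusp8 and Dusp9. The intervals of Dusp6, Dusp7 and Dusp3 lie above 0 before any adjustment for the number of genes, and Dusp2 alone of the 9 lies below 0, with an interval that reaches 0.040.

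The members did not vary as one block across the libraries. Centred on their mean over the 6 libraries, the log2 profiles of Dusp1 and Dusp10 had a root mean square difference of 0.108, and Dusp6 was nearest to Dusp10 at 0.120. Dusp5 and Dusp16, which varied little, were the closest pair at 0.0962. Dusp1, Dusp6 and Dusp10 each had their lowest level in WT replicate 1, at -0.35, -0.57 and -0.51 from their means, and so did Dusp3 at -0.19. Dusp4, Dusp5 and Dusp7 had theirs in WT replicate 3. Dusp2 had its highest level in WT replicate 1, at 0.82. It was the most distant from each of the other 8 members, by 0.485 (Dusp16) to 0.74 (Dusp6), in a measure that grows with a gene's own spread. The CPM ratio of Dusp6 to Dusp2 was therefore 4.89, 3.65 and 5.88 in KO, against 1.24, 3.85 and 2.39 in WT, with WT replicate 2 inside the KO range. No test was made of these profiles.

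**Figure D4:**
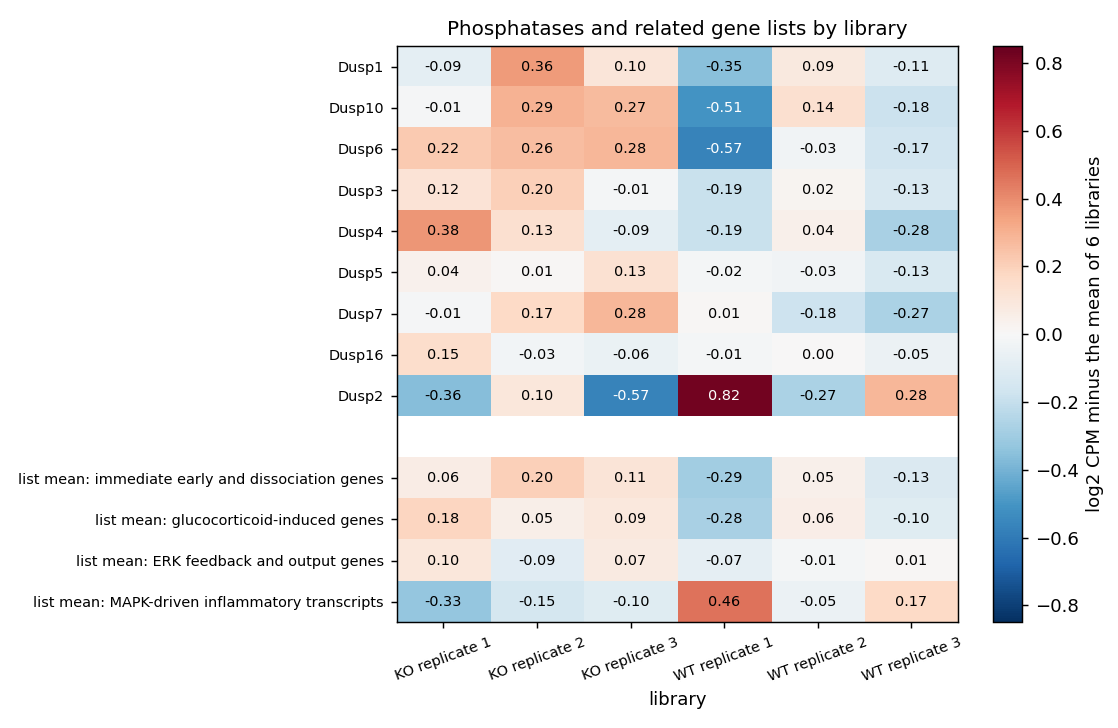
Log2 CPM of the 9 members and the mean of 4 gene lists in each library, as the difference from the mean of 6 libraries, with KO columns left of WT columns. WT replicate 1 holds the lowest values of Dusp1 (-0.35), Dusp10 (-0.51) and Dusp6 (-0.57) and the highest value of Dusp2 (0.82).

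Genes with profiles most like those of 3 members were named by the smallest root mean square difference over 6 libraries, among 9614 genes with a mean of at least 5 CPM. These candidates leave out the members, symbols of Gm and digits, and symbols ending in Rik. For Dusp6 they were Klf2 (0.0561), a zinc finger transcription factor, Mtmr10 (0.0599) and F5, coagulation factor V (0.0645). Klf2 is also on the immediate early and tissue dissociation list below. For Dusp3 they were Sat1 (0.0190), the polyamine acetyltransferase, Arl4c (0.0195), a small GTPase, and Slc25a30 (0.0263). For Dusp7 they were Acot8 (0.0469), a peroxisomal thioesterase, Poll (0.0586), a DNA polymerase, and Ms4a8a (0.0723). Dusp1 and Dusp2 were added after their values were seen. Nearest to Dusp1 were Trim36 (0.0478), Plxnd1 (0.0526) and Gpr180 (0.0533), and nearest to Dusp2 were Cflar (0.114), an inhibitor of caspase-8, Ptger4 (0.157), a prostaglandin E2 receptor, and Kcnj2 (0.161), a potassium channel. The nearest gene to Dusp2 was farther away than the nearest gene to each of the other 4 members. This difference is not scaled and grows with a gene's own spread. Dusp2 ran from -0.567 to 0.820 around its mean, against -0.189 to 0.201 for Dusp3. The distance alone therefore does not show an unusual profile.

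The kinases that the phosphatases act on were also read. Of 10 tested MAP kinase genes, 0 passed with edgeR or DESeq2, with 1 on each side at an unadjusted p under 0.05 and a median log2 fold change of 0.025. Mapk8, which encodes JNK1, was at 29.1 ± 1.79 CPM in KO and 25.0 ± 1.85 CPM in WT, with a log2 fold change of 0.22 (SE 0.0937). Mapk9, which encodes JNK2, was at 56.0 ± 2.15 CPM in KO and 62.6 ± 0.584 CPM in WT, with a log2 fold change of -0.16 (SE 0.0676). Mapk3, which encodes ERK1, was at 0.15 (SE 0.0703) on the same scale. Of 19 tested genes of the kinases upstream of the MAP kinases, 0 passed with edgeR or DESeq2, 13 were positive and 1 had an unadjusted p under 0.05, with a median of 0.082. Among those with the smallest p were Map3k1 (0.29, SE 0.122) and Map2k2 (0.12, SE 0.0683). Map3k1 was at 0.17 without WT replicate 1. Of 10 tested kinases that MAP kinases activate, 0 passed with edgeR or DESeq2 and 4 were positive. Mknk2, a kinase of the cap-binding factor eIF4E, was the 1 with an unadjusted p under 0.05, at 327, 359 and 290.5 CPM in KO, against 234, 284 and 259 CPM in WT, with log2 fold change 0.33 (SE 0.0988). All its KO libraries lay above its WT libraries. Mapkapk2, the p38-activated kinase MK2, had a log2 fold change of -0.16 (SE 0.104), and -0.049 without WT replicate 1. Mknk1 was at 0.094 (SE 0.0703), and 0.051 without KO replicate 2.

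Genes of ERK feedback and output, read as a list of 18 from general knowledge, did not lie on one side. Not all of them are known to be induced by ERK, and Egr1 and Ier3 are also on the immediate early list below. Of 17 tested, 8 were positive and 9 negative, with a median log2 fold change of -0.018. None passed with edgeR or DESeq2. At an unadjusted edgeR p under 0.05, where 3.86% of all tested genes were higher and 3.06% lower, 3 were higher and 2 lower. Among them Spry2, a Sprouty feedback inhibitor, was at 45.9, 35.4 and 41.3 CPM in KO, against 22.0, 34.6 and 27.8 CPM in WT (log2 fold change 0.54, SE 0.162). Spred3, of a related inhibitor family, was at 15.7, 16.7 and 11.4 CPM in KO, against 9.29, 9.32 and 10.9 CPM in WT (0.57, SE 0.159). Spred1 ran the other way, at 111, 104 and 106 CPM in KO, against 147, 115 and 129 CPM in WT (-0.29, SE 0.0911). EdgeR's adjusted p was 0.701 for each of Spry2, Spred3 and Spred1. Their groups did not overlap, and nor did those of Egr1. All KO values lay above all WT values in 3 of the 17 and below them in 1. Of all tested genes, 6.11% lay above and 6.3% below in this way. Like Dusp6, Spry2 had its lowest value in WT replicate 1. Without that library the log2 fold change of Spred1 was -0.19.

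Of 6 other tested phosphatases that act on MAP kinases, 0 passed with edgeR or DESeq2 and 0 had an unadjusted p under 0.05, with a median log2 fold change of 0.012. Besides Dusp9, the 2 with the smallest p were the serine/threonine phosphatases Ppm1a (0.038, SE 0.0669) and Ppm1d (0.046, SE 0.117). Of 12 tested atypical dual-specificity phosphatases, 0 passed with edgeR or DESeq2, 6 were positive and the median was -0.0040. Dusp18, a small phosphatase, was the 1 with an unadjusted p under 0.05. It was at 26.6, 34.5 and 26.6 CPM in KO, against 10.6, 21.9 and 20.6 CPM in WT (log2 fold change 0.72, SE 0.251, edgeR adjusted p = 0.701). All its KO libraries lay above its WT libraries, and without WT replicate 1 the log2 fold change was 0.46. Dusp14 (-0.19, SE 0.202) and Dusp22 (-0.092, SE 0.114) were next by p.

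Genes induced by the same stimuli as Dusp1 were compared with it library by library. In a list of 24 immediate early and tissue dissociation genes without the members, 22 were positive, 10 had an unadjusted p under 0.05 on the higher side and 0 on the lower side. Of all tested genes, 49.8% were positive, and at that threshold 3.86% were higher and 3.06% lower. The median log2 fold change was 0.20. None passed with edgeR, and DESeq2 called 2 as higher (Hspa1a and Hspa1b). The mean centred log2 level of the list was 0.062, 0.202 and 0.108 in KO, against -0.293, 0.046 and -0.126 in WT. WT replicate 1 was the lowest library for 16 of the 24, as it was for 20.5% of all tested genes. Jun, a component of AP-1, was at 612, 602 and 601 CPM in KO, against 390, 535 and 459 CPM in WT (log2 fold change 0.39, SE 0.106, edgeR adjusted p = 0.701). As with Dusp6, the KO libraries of Jun were nearly equal and the WT libraries were spread, with coefficients of variation of 0.983% in KO and 15.7% in WT. Handling and digestion of the tissue also induce these genes, and their part in the values of Dusp1, Dusp6 and Dusp10 was not tested.

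Dusp1 is also a classical target of the glucocorticoid receptor. Of 10 glucocorticoid-induced genes, 9 were positive, 3 had an unadjusted p under 0.05, 0 passed with edgeR or DESeq2 and the median log2 fold change was 0.33. Without WT replicate 1 the median was 0.17, and without KO replicate 3 it was 0.22. The 3 were Ddit4 (0.41, SE 0.0948), Cebpd (0.39, SE 0.117) and Tsc22d3, which encodes GILZ (0.38, SE 0.129). Tsc22d3 was at 92.7, 90.1 and 86.6 CPM in KO, against 53.7, 79.2 and 74.2 CPM in WT, with no overlap, and its log2 fold change was 0.23 without WT replicate 1. WT replicate 1 was the lowest library for 6 of these 10 genes.

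Most genes on a list of inflammatory transcripts, listed from general knowledge as driven by MAP kinase signalling, had a negative log2 fold change. Whether they depend on that signalling in these cells was not tested. Of 18 tested, 13 were negative and 5 positive, with a median log2 fold change of -0.44. Zfp36, 1 of those 5, is also on the immediate early list. At an unadjusted p under 0.05, 8 were lower, where 3.06% of all tested genes were. On the higher side there was 1 (Plaur, log2 fold change 0.37, SE 0.147), where 3.86% of all tested genes were. None passed with edgeR, and DESeq2 called 2 as lower (Cxcl1 and Il1a). Cxcl1, a neutrophil chemokine, was at 175, 138 and 217 CPM in KO, against 364, 289 and 294 CPM in WT. Its groups did not overlap (log2 fold change -0.84, SE 0.164, edgeR adjusted p = 0.694). Il1a was at -0.63 (SE 0.142) and Il12b, a subunit of interleukin 12 at 1.19 ± 0.638 CPM in KO and 2.89 ± 0.614 CPM in WT, at -1.28 (SE 0.382) on the same scale. The mean centred log2 level of the list was -0.330, -0.148 and -0.100 in KO, against 0.459, -0.050 and 0.170 in WT. WT replicate 1, where Dusp2 was highest and Dusp1, Dusp6 and Dusp10 were lowest, was the highest library for 11 of the 18 genes, as it was for 21.7% of all tested genes. The list's median was -0.27 without WT replicate 1 and -0.26 without KO replicate 1. Whether the phosphatases and these transcripts depend on each other was not tested.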

How the data were processed

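The authors deposited unnormalized read counts per gene. The submitters' processing notes list Trimmomatic, HISAT2, Cufflinks, HTSeq and the build mm10, and give neither their roles nor their versions. Libraries were made with a stranded mRNA kit, per the labels' protocols. The annotation, the strand setting and the treatment of shared reads are not given in the sources used here.

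Genes were filtered with filterByExpr (minimum count 10, minimum total 15), which kept 12136 of 21878 genes. Counts were scaled by TMM factors and fitted with edgeR 4.0.16 (R 4.3.3) by a robust quasi-likelihood model with genotype as the only term, and p-values were adjusted over all tested genes by Benjamini-Hochberg. Intervals are 95%. Log2 CPM for profiles used a prior count of 2. Alternatives used DESeq2 1.42.0 and limma 3.58.1. Levels per kb used merged exons of GENCODE M21 (GRCm38, the assembly that mm10 names), coordinates and promoters came from RefSeq on GRCm38.p6. Every pair of libraries differed by more than sampling noise (chi-square per degree of freedom at least 7.7).

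The members and lists were chosen with earlier results of these data known. All members are named, with up to 3 tested genes of each list by smallest p, of which 1 is not reported here, and the genes most like the 3 members of smallest p. Protein sequences were not used here.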

Additional observations from a re-analysis of the deposited data

How the results depend on the processing

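In 17 alternatives no member passed, and 8 members kept a positive log2 fold change in 16, with 7 without KO replicate 1. Members higher at an unadjusted p under 0.05 numbered 3 as reported and 5 with no filter, and 1 to 5 with a library left out. Members lower numbered 1 with DESeq2, with quality weights and without robust shrinkage, and 0 to 1 with a library left out. Over all genes, 0 were called higher and 2 lower. RLE factors, upper-quartile factors, library totals alone, no filter and limma-voom gave 1 lower, and a filter of 1 CPM in 3 libraries or a minimum count of 30 gave 0. DESeq2 called 8 higher and 21 lower. With quality weights, limma-voom called 1 higher and 3 lower. With a library left out the calls ran from 0 to 3 higher and from 0 to 2 lower. Of genes in the 9 pathway lists, 0 were called as reported, 4 with DESeq2, and 0 to 1 with a library left out.

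With a library left out, signs turned for Dusp16 (log2 fold changes from -0.021 to 0.089, negative without KO replicate 1), Dusp9 (-0.27 to 0.073, positive without KO replicate 2), Ppm1d (-0.017 to 0.092, negative without KO replicate 2 or WT replicate 2) and Dusp14 (-0.31 to 0.0066, positive without WT replicate 1). The cause was not tested. By the longest transcript in place of merged exons, Dusp1 was at 438 CPM per kb in KO and 368 in WT, Dusp16 at 25.5 in KO and 24.7 in WT, and Dusp6 at 36.3 in KO. The length used sets this shift. The KO mean minus the WT mean of the neutrophil marker sums was 53.1 CPM as reported and 13.7 CPM without Mmp9, added after seeing the data. The members' median log2 fold change was 0.15 without KO replicate 2 and 0.16 without WT replicate 1.

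The labels number the replicates 1 to 3 in both groups without saying what a number shares. Deviations from the group means correlated at -0.0574, -0.0941 and -0.109 between same-numbered libraries, so the numbers were not taken to pair them. With the replicate number as a block, 1 gene was called lower, and 5 members had an unadjusted p under 0.05 on the higher side. Depth was 333 to 22509 counts per member and library.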
